A study of Homo sapiens with 20 samples.

Results

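The 9 genes TMEM63C, PPP3CB, CCDC106, VWA5B2, TMEM100, ARHGAP24, CELF3, FRG2C and BANK1 were taken from a table of 43366 RefSeq genes because they lie outside the MHC class II family and were selected on their measured difference between clones with and without ZBTB48, in the study or in these same counts. Every genotype value of these genes is therefore a description, and counts of them past a cut-off between the genotypes stand only beside the share of all genes and support nothing. The data are gene counts from the osteosarcoma cell line U2OS, with 5 WT clones and 5 ZBTB48 KO clones. Each clone gave 1 untreated library and 1 library made after exposure to IFNγ at 250 U/ml lasting 24 h, 20 stranded mRNA libraries in all. The KO alleles are not described in the sources used here, and each replicate is a clone of a single cell line, so p-values measure the spread between clones of U2OS.

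ZBTB48 is a zinc finger protein that binds the TTAGGG repeats of telomeres and also binds gene promoters, where it acts as a transcriptional activator. IFNγ is a cytokine that signals through JAK kinases and changes the transcription of many genes within a day. The 9 genes have no common pathway. TMEM63C belongs to a family of osmosensitive and mechanosensitive ion channels. PPP3CB is a catalytic subunit of calcineurin, the calcium-dependent phosphatase that activates NFAT transcription factors. CCDC106 is a coiled-coil protein, and VWA5B2 carries a von Willebrand factor A domain. TMEM100 is a small membrane protein of the BMP and ALK1 pathway in endothelium, ARHGAP24 (FilGAP) is a filamin-binding GTPase-activating protein that acts on Rac, CELF3 is an RNA-binding splicing regulator of neurons, FRG2C is one of several near-identical FRG2 copies, and BANK1 is a scaffold protein of B cell receptor signalling.

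Total counts per library ranged from 46652288 to 72952859. Levels are in CPM, with library sizes adjusted by TMM in edgeR over all 20 libraries, and 3 counts, taken as the floor, came to between 0.0409 and 0.0608 CPM. ZBTB48 itself stood between 8.05 and 9.19 CPM in the untreated WT clones and between 1.27 and 4.04 CPM in 4 of the untreated libraries labelled KO, while the library labelled KO replicate 3 had 11.3 CPM. After IFNγ the library labelled KO replicate 3 again had the most, 16.0 CPM against 8.91 to 11.7 CPM in the WT clones. In these libraries the ZBTB48 target MTFP1 nevertheless stood at 0.939 and 0.287 CPM, against at least 27.1 CPM in every WT library. The libraries labelled KO replicates 4 and 5 after IFNγ resembled the untreated libraries of the other number, 5 and 4 (Pearson's r across 21052 genes of 0.615 and 0.528, against -0.03 and 0.03 as labelled), so clone-wise values for these clones are also given with the 2 treated libraries exchanged. Of the osteoblast genes, RUNX2 (18.6 to 90.4 CPM) and SPARC (634 to 3300 CPM) were present in every library, whereas the group means of SP7, COL1A2, IBSP and BGLAP were under 1 CPM.

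The 9 genes lie on 7 chromosomes. The RefSeq promoter table (GRCh38.p14, 250 bases before to 50 bases after an annotated start) held 13 windows for 7 of them and none for PPP3CB and TMEM100. The telomere letters TTAGGG, which read CCCTAA on the other strand, were found in none of the 13 windows and in 9.05% of all 35116 promoter windows of this length. The letters AGGGAG were searched because they occur in CIITA promoter probes used for ZBTB48 binding, among them probe b. The e.2 probe, the CIITA site in the study's crystal structure, lacks them on both strands, so the search does not cover that site. Of the known ZBTB48 targets, the window of MTFP1 held these letters and that of PXMP2 did not. AGGGAG, which reads CTCCCT on the other strand, was found in 2 of the 13 windows and in 35.3% of all windows, so these genes did not hold it more often than promoters at large. The windows of CELF3 (chr1:151716754-151717053, minus strand), which has these letters 158 and 150 bases before the start, and of the first annotated start of CCDC106 (chr19:55647150-55647449, plus strand), which has them on the opposite strand 234 bases before the start, are printed with the letters in capitals. The window of TMEM63C (chr14:77181548-77181847, plus strand), the gene with the largest fold difference among those with over 10 CPM in WT clones, is printed beside them as one with no match.
CELF3: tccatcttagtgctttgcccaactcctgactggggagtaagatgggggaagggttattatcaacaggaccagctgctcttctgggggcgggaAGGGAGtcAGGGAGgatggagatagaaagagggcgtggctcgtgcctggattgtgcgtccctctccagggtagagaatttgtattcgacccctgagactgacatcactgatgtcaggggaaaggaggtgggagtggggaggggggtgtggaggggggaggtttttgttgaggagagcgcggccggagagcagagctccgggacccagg
CCDC106: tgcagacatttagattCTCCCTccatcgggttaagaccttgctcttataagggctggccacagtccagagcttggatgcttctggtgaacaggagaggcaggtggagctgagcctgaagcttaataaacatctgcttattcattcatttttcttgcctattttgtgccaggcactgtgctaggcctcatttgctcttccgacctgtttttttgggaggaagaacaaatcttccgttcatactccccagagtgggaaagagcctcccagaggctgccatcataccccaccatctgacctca
TMEM63C: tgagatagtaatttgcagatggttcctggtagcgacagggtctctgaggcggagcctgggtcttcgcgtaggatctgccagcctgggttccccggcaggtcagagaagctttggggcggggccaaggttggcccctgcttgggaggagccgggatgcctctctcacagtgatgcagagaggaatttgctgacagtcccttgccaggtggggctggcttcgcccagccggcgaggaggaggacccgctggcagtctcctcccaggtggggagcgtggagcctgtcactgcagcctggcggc

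Read per kilobase of merged exons, PPP3CB had the highest level in untreated WT clones, with 16.3 ± 2.61 CPM per kb (SD, n = 5), followed by VWA5B2 with 11.9 ± 4.90 CPM per kb, and the ranges of both genes overlapped. CCDC106 (3.53 ± 1.03 CPM per kb) and TMEM63C (2.43 ± 0.45 CPM per kb) came next and overlapped each other, well below VWA5B2. BANK1 (0.871 ± 0.30 CPM per kb), TMEM100 (0.799 ± 0.24 CPM per kb) and CELF3 (0.259 ± 0.21 CPM per kb) formed a run in which each gene overlapped the next. ARHGAP24 (0.0862 ± 0.042 CPM per kb) and FRG2C (0.0260 ± 0.024 CPM per kb) were the lowest, and the value of ARHGAP24 is small partly because its annotated exons add up to 55020 bases, of which 49223 belong to 1 merged exon. In the untreated libraries labelled KO the order began the same way, with PPP3CB at 4.61 and VWA5B2 at 3.87 CPM per kb, but TMEM63C stood behind BANK1, at 0.362 against 0.678 CPM per kb, with overlapping ranges. CELF3 was last there, with 0.0124 CPM per kb. After IFNγ FRG2C was last in the WT clones, with 0.00988 CPM per kb, and between CCDC106 and TMEM63C in the libraries labelled KO, with 0.167 CPM per kb, where its range overlapped that of TMEM63C. In such bulk libraries fewer expressing cells and less RNA per cell cannot be told apart.

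TMEM63C, on chromosome 14 from 77181798 to 77259495, had the largest ratio between WT and KO among the genes of the set above 10 CPM in WT clones. Untreated WT replicates 1 to 5 had 10.7, 11.6, 13.5, 12.5 and 16.9 CPM. Untreated libraries labelled KO replicates 1 to 5 had 4.18, 0.726, 3.02, 1.15 and 0.631 CPM. Each WT clone was thus above every KO clone, and the KO clones spread over 6.63-fold, with replicates 1 and 3 highest. The means were 13.0 ± 2.4 and 1.94 ± 1.58 CPM (SD, n = 5), a ratio of 6.71 and a log2 fold change in edgeR, written log2FC, of 2.75 with a standard error (SE) of 0.51. After IFNγ the WT clones had 4.33, 6.60, 6.80, 6.99 and 7.02 CPM and the libraries labelled KO 1.60, 0.368, 0.382, 0.704 and 0.307 CPM. Both sets of clones were lower than untreated ones on average, and the ratio of means was 9.44, with a log2FC of 3.23 (SE 0.46). Its relatives TMEM63A and TMEM63B were not called between the genotypes, with untreated log2FC values of 0.03 (SE 0.17) and 0.12 (SE 0.15).

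PPP3CB, on the minus strand of chromosome 10 from 73436433 to 73496024, was the most highly expressed of the 9 genes. Untreated WT clones had 73.4, 73.0, 89.1, 71.8 and 101 CPM and untreated libraries labelled KO 11.1, 28.8, 24.8, 21.9 and 29.0 CPM. The groups were far apart, and KO replicate 1 was the lowest library. The means of 81.7 ± 13.1 and 23.1 ± 7.33 CPM (SD, n = 5) gave a ratio of 3.53 and a log2FC of 1.83 (SE 0.23). Treated WT clones had 81.6, 72.1, 90.5, 72.2 and 107 CPM and the libraries labelled KO 11.6, 30.1, 21.7, 28.9 and 25.6 CPM. The genotype difference was of the same size as without IFNγ, with a ratio of 3.59 and a log2FC of 1.83 (SE 0.24). The other catalytic subunits of calcineurin, PPP3CA and PPP3CC, were not called. PPP3CA had 165 ± 38.9 CPM in untreated WT and 152 ± 11.8 CPM in untreated KO libraries (SD, n = 5; log2FC 0.13, SE 0.16, edgeR adjusted p = 0.987), and PPP3CC had a log2FC of -0.04 (SE 0.18). PPP3CB-AS1, which shares 13 exonic bases with PPP3CB on the opposite strand, had a log2FC of 0.13 in untreated and 0.16 in treated libraries.

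CCDC106, on chromosome 19 from 55647400 to 55653161, followed the same pattern at a lower level. Untreated WT clones had 13.3, 13.6, 7.32, 7.81 and 9.20 CPM and untreated libraries labelled KO 2.36, 3.45, 1.53, 2.95 and 2.90 CPM. All WT clones lay above all KO clones, and replicate 3 was the lowest clone of each genotype. The ratio of means was 3.88, with a log2FC of 1.96 (SE 0.27). In treated cells the WT clones had 11.5, 12.3, 5.78, 6.96 and 6.99 CPM and the libraries labelled KO 2.53, 2.78, 1.68, 2.63 and 2.48 CPM, a ratio of means of 3.59 (log2FC 1.83, SE 0.27). PPP3CB and CCDC106 were each other's nearest gene by a root-mean-square difference in centred log2 CPM, which came to 0.55 over the 20 libraries in a search of 15116 genes. This closeness of pattern is a description of libraries that share clones and a treatment.

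VWA5B2, on chromosome 3 from 184229585 to 184242329, varied more between clones. Untreated WT clones had 38.1, 72.1, 41.5, 32.9 and 81.2 CPM and untreated libraries labelled KO 32.0, 9.67, 14.6, 12.2 and 18.1 CPM. The groups did not overlap, but KO replicate 1, with 32.0 CPM, was close to the lowest WT clone, with 32.9 CPM. The ratio of means was 3.07 and the log2FC 1.62 (SE 0.36), or 1.97 without KO replicate 1. With IFNγ the WT clones had 14.4, 39.9, 17.4, 15.6 and 37.5 CPM and the libraries labelled KO 8.08, 6.75, 5.58, 7.72 and 8.37 CPM. WT replicates 2 and 5 were the highest in both conditions, and the log2FC was 1.76 (SE 0.32). Its relative VWA5A, a known ZBTB48 target, was the 1 paralog of the 13 tested that was called between the genotypes, with 17.0 ± 6.06 against 0.430 ± 0.24 CPM in untreated cells (SD, n = 5; log2FC 5.29, SE 0.53, edgeR adjusted p = 0.00308). In untreated cells 0.0154% of 19505 genes were called between the genotypes. The third relative, VWA5B1, was too low to test. ALG3, which shares 29 exonic bases with VWA5B2 on the opposite strand, had a log2FC of 0.10 in untreated and 0.20 in treated libraries.

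TMEM100, on the minus strand of chromosome 17 from 55719627 to 55732081, was 2.32-fold higher in untreated WT than in KO libraries. The untreated WT clones had 3.02, 5.77, 4.89, 7.02 and 4.40 CPM and the libraries labelled KO 2.41, 1.25, 2.54, 1.79 and 2.84 CPM, so that WT replicate 1 was just above the highest KO library. After IFNγ the WT clones had 1.97, 2.73, 1.96, 2.46 and 1.95 CPM and the libraries labelled KO 0.625, 0.972, 0.650, 1.06 and 0.470 CPM. The groups were further apart than in untreated cells, with log2FC values of 1.21 (SE 0.29) without and 1.53 (SE 0.29) with IFNγ. ARHGAP24, on chromosome 4 from 85475150 to 86002666, had 4.29, 2.81, 3.20, 8.62 and 4.80 CPM in untreated WT and 1.33, 2.93, 1.35, 1.12 and 1.87 CPM in untreated KO libraries. These groups overlapped, since KO replicate 2 was above WT replicate 2 (log2FC 1.48, SE 0.37). After IFNγ they did not, with 3.64, 2.37, 2.08, 2.78 and 3.61 CPM against 0.882, 1.5, 0.994, 0.343 and 0.650 CPM (log2FC 1.72, SE 0.37).

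CELF3, on the minus strand of chromosome 1 from 151700058 to 151716803, rested on few counts and on a subset of the WT clones. Untreated WT clones had 107, 46, 9, 90 and 194 counts, and the libraries labelled KO had 6, 1, 0, 4 and 8. WT replicate 5 was the highest, at 3.37 CPM, and WT replicate 3, at 0.182 CPM, was only just above the highest KO library, at 0.158 CPM. The ratio of means was 21.0, with a log2FC of 4.38 (SE 0.87). After IFNγ the WT clones had 19, 16, 12, 82 and 194 counts and the libraries labelled KO 6, 2, 5, 4 and 10. The groups then overlapped, and the log2FC of 3.59 (SE 0.89) was 2.49 without WT replicate 5. Of 10 neuronal markers, INSM1 was at 0 in every library and the group means of ELAVL3, ELAVL4, STMN2 and CHGA were under 1 CPM, while NOVA1, SNAP25, SYT1, CHGB and RBFOX3 had medians over the 20 libraries of 15.7, 10.1, 5.63, 4.53 and 1.83 CPM. The summed level of these markers ranged from 41.0 to 50.7 CPM in untreated WT and from 29.8 to 51.3 CPM in untreated KO libraries, and none of the 6 or 7 that could be tested in each comparison was called. CHGB, a secretory granule protein of neuroendocrine cells, was at 6.25 ± 3.99 CPM in untreated WT and 3.14 ± 0.98 CPM in untreated KO libraries (SD, n = 5), with overlapping groups (log2FC 1.01, SE 0.39, edgeR adjusted p = 0.980, and 0.90, SE 0.44, with IFNγ). The part of these markers in the CELF3 values was not tested.

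FRG2C, on chromosome 3 from 75664328 to 75667173, was the 1 gene of the set that was higher in the libraries labelled KO, and only in treated cells did the groups separate. Treated WT clones had 0, 0, 1, 4 and 1 counts and treated libraries labelled KO 12, 14, 36, 14 and 20 counts. Every KO library was above every WT library, with 0.340 ± 0.21 against 0.0201 ± 0.028 CPM (SD, n = 5), although 4 of the 5 WT libraries were at or under the floor, so the fitted log2FC of -3.95 (SE 0.78) depends on the prior count. In untreated cells the counts were 4, 0, 3, 1 and 7 against 2, 3, 8, 19 and 0, and the groups overlapped. The copies FRG2 and FRG2B were too low to test between the genotypes. FRG2B averaged 0.342 ± 0.25 CPM in treated KO and 0.0377 ± 0.029 CPM in treated WT libraries (SD, n = 5), and FRG2 0.135 ± 0.12 and 0.0942 ± 0.10 CPM. Only uniquely mapped reads were counted, and how reads were divided among these near-identical copies is uncertain.

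BANK1, on chromosome 4 from 101790730 to 102074812, differed between the genotypes mainly after IFNγ. Untreated WT clones had 2.44, 1.63, 2.88, 3.79 and 4.16 CPM and untreated libraries labelled KO 2.13, 1.84, 2.47, 2.80 and 2.35 CPM. These groups overlapped, with a log2FC of 0.37 (SE 0.28). After IFNγ the WT clones had 4.59, 7.58, 9.02, 9.25 and 8.43 CPM and the libraries labelled KO 4.17, 2.65, 3.29, 4.30 and 3.20 CPM. Every WT clone was then above every KO clone, WT replicate 1 by a small margin, and the ratio of means was 2.21 (log2FC 1.13, SE 0.25). Of 12 B cell and B cell receptor genes, the group means of MS4A1, CD79A, CD79B, PTPRC, BTK, BLK and BLNK were under 1 CPM. The summed level of the 12 genes ranged from 39.3 to 62.0 CPM in treated WT and from 38 to 69.9 CPM in treated KO libraries, and was mostly LYN, PIK3AP1 and PLCG2. Of the 6 or 7 that could be tested, PIK3AP1 in WT clones after IFNγ was the 1 called, where 3% of 19522 genes were. The part of these genes in the BANK1 values was not tested.

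In the genotype comparison of untreated cells, 8 of the 9 genes passed the filter on low counts, 8 were above 0 and none was called by edgeR's quasi-likelihood test at more than 2-fold with an adjusted p below 0.01, cut-offs that 0.0154% of 19505 genes passed (DESeq2 without shrinkage put 5 of the 8 past the same cut-offs, where 0.0615% of all genes lay). With IFNγ all 9 were fitted, 8 were higher and 1 lower in WT, and edgeR again called none (0.0155% of 19383 genes, while DESeq2 without shrinkage put 7 past the cut-offs and 0.0825% of all genes). The WT and KO libraries did not overlap for 6 genes in untreated cells and for 7 higher and 1 lower gene after IFNγ, against 0.528% of all genes higher without and 0.573% higher and 0.253% lower with IFNγ. DESeq2 with normal shrinkage, which the study's methods name, put PPP3CB and CCDC106 past the cut-offs in untreated cells, of 5 genes in all. With IFNγ it put these 2 and TMEM63C past them, of 6 in all. All these counts restate how the genes were chosen. Their median log2FC was 1.72 without and 1.76 with IFNγ, against -0.0017 and -0.016 over all genes tested. Without the library labelled KO replicate 3 the log2FC values of all genes kept their signs, from 0.39 (BANK1) to 4.04 (CELF3) in untreated cells and from 1.11 (BANK1) to 3.59 (CELF3) with -3.54 for FRG2C in treated cells.

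**Figure D1:**
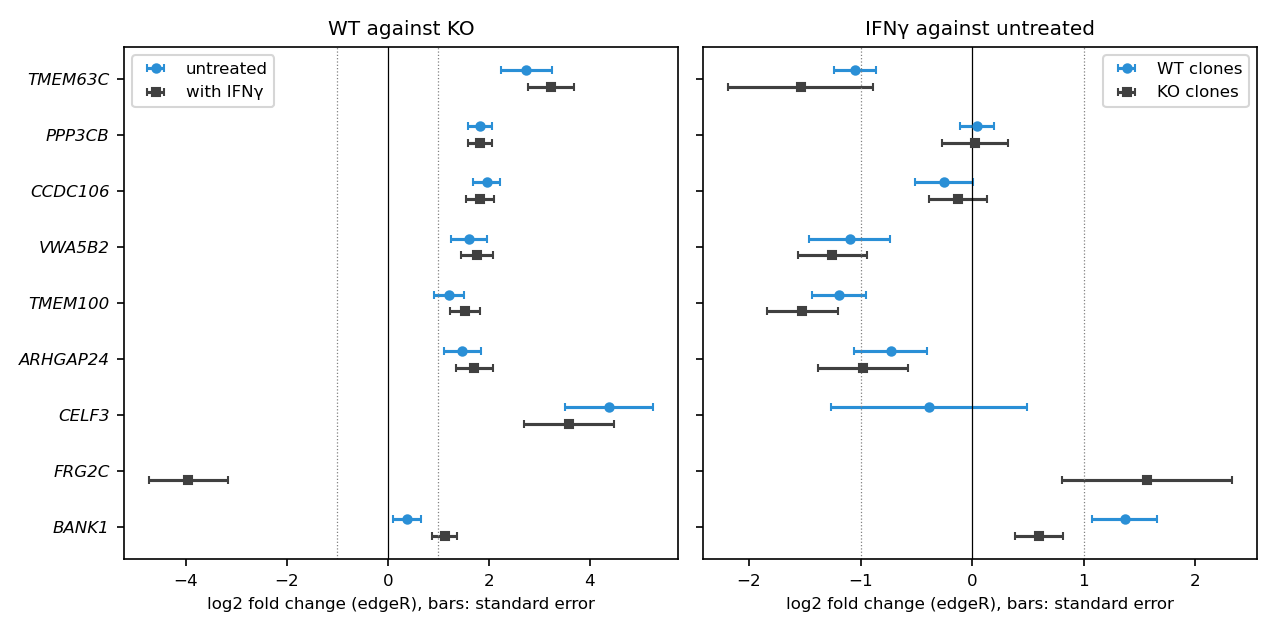
edgeR log2 fold changes (points) with standard errors (bars) of the 9 genes, WT against KO at left and IFNγ against untreated at right, with dotted lines at 2-fold. A missing point is a gene that did not pass the filter on low counts, and FRG2C alone lies left of 0 between the genotypes.

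The IFNγ response was not what chose the 9 genes, but the untreated and the treated libraries both entered the genotype comparisons that did. A WT level that was high or low by clone variation would thus enter both the choice and the response. The p-values do not allow for this, so calls among these genes stand beside the share of all genes and are not an independent test. In WT clones TMEM63C fell by 1.05 on the log2 scale (SE 0.19, edgeR adjusted p = 0.00441) and TMEM100 fell by 1.19 (SE 0.24, edgeR adjusted p = 0.00889), and both were called. All 5 WT clones were lower after IFNγ for both genes, and the treated and untreated WT libraries did not overlap, as was also so for BANK1. The calls numbered 2 of 8 genes tested, both lower, while 3% of 19522 genes were called in either direction and 0.512% were called lower. Groups that did not overlap were seen for 3.88% of all genes lower and 7.27% higher. Each call was lost when any 1 of the 5 WT clones was left out, with an edgeR adjusted p of up to 0.0241 for TMEM63C and from 0.0142 to 0.0435 for TMEM100. Without WT replicate 1 TMEM63C kept an edgeR adjusted p of 0.00963 but its change of -1.0 was under 2-fold. BANK1 was higher in all 5 WT clones, by 0.90 to 2.20 on the log2 scale, and missed the cut-off (log2FC 1.37, SE 0.29, edgeR adjusted p = 0.0115). VWA5B2 was lower in all 5 WT clones, with a log2FC of -1.10 (SE 0.36, edgeR adjusted p = 0.0798).

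The same clone was sequenced untreated and treated, and with the clone as a block 4 of the 8 genes were called in WT, where 7.24% of all genes were (4.44% higher and 2.8% lower). DESeq2 with normal shrinkage called TMEM100 and BANK1 (3.52% of all genes), and without shrinkage also TMEM63C (5% of all genes). TMEM63C (-1.05, edgeR adjusted p = 7.28e-06), TMEM100 (-1.16, edgeR adjusted p = 6.23e-05) and VWA5B2 (-1.15, edgeR adjusted p = 7.07e-07) fell and BANK1 rose (1.39, edgeR adjusted p = 8.76e-05) in this fit. The clones of VWA5B2 that differed most in level, WT replicates 4 and 5 with 32.9 and 81.2 CPM untreated, were both lower after IFNγ, at 15.6 and 37.5 CPM. ARHGAP24 had a log2FC of -0.73 (SE 0.33, edgeR adjusted p = 0.191), which was -0.37 without WT replicate 4. PPP3CB had 0.04 (SE 0.15, edgeR adjusted p = 0.910), CCDC106 -0.25 (SE 0.26, edgeR adjusted p = 0.625) and CELF3 -0.38 (SE 0.88, edgeR adjusted p = 0.852), which lay between -0.97 without WT replicate 5 and -0.09 without WT replicate 1. FRG2C was too low to test in WT. The median log2FC of the 8 genes tested was -0.56 in WT and -0.55 in KO libraries, against -0.03 over all genes in both. These sets of 8 differ, since CELF3 was tested only in WT and FRG2C only in KO, so the medians cannot be compared.

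In the libraries labelled KO none of the 8 genes tested was called by edgeR, where 1.96% of 19385 genes were, and 5 had an unadjusted p under 0.05, as did 23.5% of all genes. TMEM100 had a log2FC of -1.52 (SE 0.32, edgeR adjusted p = 0.0159) and VWA5B2 of -1.25 (SE 0.31, edgeR adjusted p = 0.0306), and for both the treated and untreated KO libraries did not overlap, as for 3.41% of all genes lower after IFNγ. DESeq2 without shrinkage called both, with adjusted p values of 0.000111 and 0.0013, along with 1.09% of all genes called lower, and normal shrinkage left TMEM100 alone (3.16% of all genes in either direction). With the clone as a block and the labels as given none was called (3.72% of all genes), and with the treated KO replicates 4 and 5 exchanged TMEM100 (-1.52, edgeR adjusted p = 0.00208) and VWA5B2 (-1.14, edgeR adjusted p = 0.00402) were, along with 6.23% of all genes, 2.4% lower. VWA5B2 in KO was -0.91 without KO replicate 1, and without KO replicate 3 the log2FC values were -1.22 for VWA5B2 and -1.40 for TMEM100. TMEM63C was lower in all 5 KO clones as labelled and in 4 of 5 with the exchange, with a log2FC of -1.54 (SE 0.65, edgeR adjusted p = 0.179), or -1.17 without KO replicate 3.

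Other genes of the set gave smaller or noisier values in the KO libraries. BANK1 was higher after IFNγ in all 5 KO clones, with a log2FC of 0.60 (SE 0.22, edgeR adjusted p = 0.120). Clone by clone the mean response of BANK1 was 1.41 ± 0.52 in WT and 0.59 ± 0.22 in KO clones (SD, n = 5). ARHGAP24 was lower in all 10 clones, with -0.62 ± 0.58 in WT and -1.01 ± 0.53 in KO clones (SD, n = 5). VWA5B2 and TMEM100 were also lower in all 10 clones, with -1.14 ± 0.21 and -1.13 ± 0.33 in WT and -1.13 ± 0.59 and -1.48 ± 0.90 in KO clones (SD, n = 5). Exchanging the treated KO replicates 4 and 5 leaves these KO means as they are and gives SDs of 0.32 for BANK1, 0.77 for ARHGAP24, 0.62 for VWA5B2 and 0.67 for TMEM100. For FRG2C the KO log2FC was 1.57 (SE 0.76, edgeR adjusted p = 0.245), and 4 of 5 clones were higher as labelled and 5 of 5 with the exchange. This value was 1.22 without KO replicate 3 and 2.56 without KO replicate 4. PPP3CB and CCDC106 had 0.03 (SE 0.29) and -0.12 (SE 0.26). The responses of the 2 genotypes share the libraries that chose the genes, so the difference between them was not tested.

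Genes with a similar course over the 20 libraries were named by the same root-mean-square difference. VWA5B2 was nearest to TMEM100 (0.59) and TMEM100 to CHST6 (0.48), while ARHGAP24 was nearest to SCUBE3 (0.52) and BANK1 to DOP1A (0.43). TMEM63C and CELF3 had PXMP2, a known ZBTB48 target, as their nearest gene, but at larger distances of 0.98 and 1.25. FRG2C had LOC389831 at 0.97. The root-mean-square spread of TMEM63C, CELF3 and FRG2C about their own means was also larger, at 1.87, 1.94 and 1.30. It was 1.12 (VWA5B2) or less in the other genes of the set, so these distances cannot be ranked on one scale. Genes chosen on a genotype difference tend to lie near other genes with one, so likeness to PXMP2 is only a description.

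The nearest tested genes on each side of the 9, with tested genes that overlap them, were then compared between the genotypes. Position chose them among genes that passed the filter on low counts, and their genotype difference did not. Some lie far off, with gaps of 466407 bases from WDFY3-AS2 to ARHGAP24 and of 441847 bases from FLJ20021 to BANK1. LINC02018 lies 152151 bases from FRG2C. None of the 20 neighbours was called by edgeR in untreated or in treated cells (0.0154% and 0.0155% of all genes), with an unadjusted p under 0.05 for 1 and 2 of them against 4.79% and 4.35% of all genes, and DESeq2 called none. Their median log2FC was 0.15 without and 0.10 with IFNγ, against -0.0017 and -0.016 over all genes, and 17 and 14 of the 20 were above 0. The flanking genes of CCDC106, ZNF581 and U2AF2, had untreated values of -0.16 and 0.05, and SNX27, which ends 978 bases from CELF3, had 0.07. MSS51, which lies 2872 bases beyond the 3' end of PPP3CB on the same strand, had the largest value of the 20, with 0.952 CPM in untreated WT and 0.263 CPM in untreated KO libraries (log2FC 1.85, SE 0.43, edgeR adjusted p = 0.740) and no overlap of the groups in either condition (with IFNγ 1.59, SE 0.46, edgeR adjusted p = 0.985). Whether reads from PPP3CB transcripts reached MSS51 was not tested. USP54, on the other side of PPP3CB, had 0.04 without and 0.08 with IFNγ. In untreated cells ZDHHC22 beside TMEM63C had a log2FC of 1.06 (SE 0.60), MAPK10 beside ARHGAP24 had 1.10 (SE 0.60) and LINC02018 beside FRG2C had 0.63 (SE 0.35), and with IFNγ these values were 0.75, -0.48 and -0.10. FLJ20021, on the lower coordinate side of BANK1 but nearer to PPP3CA, had 0.18 without and 0.57 with IFNγ (SE 0.19, edgeR adjusted p = 0.996). The WT and KO libraries overlapped for each of these 4 neighbours in both conditions.

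The pathways in which these genes work were described by lists. Of 20 calcineurin and NFAT genes 19 could be tested, and none was called between the genotypes or after IFNγ in either genotype (unadjusted p under 0.05 for 0, 0, 4 and 8 of them, against 4.79%, 4.35%, 24.9% and 23.5% of all genes). Their median log2FC was 0.02 and -0.04 between the genotypes without and with IFNγ, and -0.09 and -0.15 for the response in WT and KO. NFATC4, one of the factors that calcineurin dephosphorylates, was lower after IFNγ in WT (log2FC -0.74, SE 0.16, edgeR adjusted p = 0.0125) and in KO libraries (-0.45, SE 0.12, edgeR adjusted p = 0.0354), under the fold cut-off in both. AKAP5 had the lowest value of the list in both genotypes. Its log2FC was -1.07 in WT (SE 0.23, edgeR adjusted p = 0.0111, groups apart) and -0.98 in KO libraries (SE 0.32, edgeR adjusted p = 0.0900, groups overlapping). Of 15 genes of the BMP and ALK1 pathway of TMEM100, 12 could be tested. ID1 was the 1 called, lower after IFNγ in WT, where 0.512% of 19522 genes were called lower and 3% in either direction. The medians were -0.17, -0.31, -0.16 and -0.11 in the same order. An unadjusted p under 0.05 was found for 3, 3, 4 and 1 of the 12. ACVRL1, the gene of ALK1 itself, was too low to test, with means of 0.114 CPM in untreated WT and 0.0868 CPM in untreated KO libraries. GDF2 and BMP10 were also too low, both with a mean of 0 CPM in untreated WT libraries. Whether the values below reflect ALK1 signalling was not tested. ID1, a classical BMP target gene, fell by 1.17 in WT clones after IFNγ (SE 0.15, edgeR adjusted p = 0.000444), from 204 ± 38.3 to 91.6 ± 10.5 CPM (SD, n = 5), and its untreated genotype log2FC was 0.01 (SE 0.26). In KO libraries its response was -0.83 (SE 0.42, edgeR adjusted p = 0.263). Between the genotypes SMAD4, the partner shared by all receptor-activated SMADs, was at 64.9 ± 4.14 CPM in untreated WT and 85.0 ± 8.23 CPM in untreated KO libraries (SD, n = 5), without overlap in either condition and without being called (log2FC -0.39, SE 0.10, edgeR adjusted p = 0.873, and -0.41, SE 0.12, edgeR adjusted p = 0.996 with IFNγ). Groups apart and lower in WT were seen for 0.253% of all genes with IFNγ. The inhibitory SMAD7 had -0.44 (SE 0.15) without and -0.55 (SE 0.18) with IFNγ, with groups apart only in treated cells. SMAD1, a BMP-activated SMAD, had 0.41 (SE 0.18) and 0.65 (SE 0.20) with overlapping groups, and neither gene was called.

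Of the 16 paralogs, 13 could be tested for the response in WT clones. The rise of 2 of them passed both cut-offs, which 3% of 19522 genes passed in either direction. An unadjusted p under 0.05 was found for 5 of the 13, against 24.9% of all genes. PIK3AP1, an adaptor of PI3K signalling related to BANK1, rose from 10.9 ± 1.62 to 23.5 ± 3.85 CPM (SD, n = 5; log2FC 1.09, SE 0.15, edgeR adjusted p = 0.000899). In KO libraries its log2FC was 0.76 (SE 0.25, edgeR adjusted p = 0.0863), and between the genotypes it was -0.43 without and -0.11 with IFNγ. ARHGAP25, a Rac GTPase-activating protein related to ARHGAP24, rose from 4.85 ± 1.02 to 15.5 ± 3.17 CPM in WT clones (SD, n = 5; log2FC 1.67, SE 0.21, edgeR adjusted p = 0.000434), whereas ARHGAP24 itself was lower after IFNγ in every clone. In KO libraries ARHGAP25 went from 2.87 ± 1.22 to 6.71 ± 3.13 CPM (SD, n = 5; log2FC 1.23, SE 0.43, edgeR adjusted p = 0.106). The treated KO libraries were all below the treated WT clones, without the gene being called (log2FC 1.19, SE 0.34, edgeR adjusted p = 0.985). Without IFNγ its genotype log2FC was already 0.76 (SE 0.33, edgeR adjusted p = 0.980), with overlapping groups. The CELF relatives CELF1, CELF2, CELF4, CELF5 and CELF6 had genotype log2FC values between -0.41 and 0.44, none of them called.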

How the data were processed

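Gene expression of 5 WT and 5 ZBTB48 KO clones of U2OS cells was measured in 20 RNA-seq libraries. For alignment to GRCh38 the authors used STAR 2.7.9a on a RefSeq index, then kept unique mappers, counted them with featureCounts 2.4.0 and deposited raw counts per gene without normalization. The strand setting of the counting is not given in the sources used here, so reads of genes that overlap on opposite strands may be mixed. Columns were matched to samples by the clone names in the labels.

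The 4 comparisons, each with 5 libraries a side, were fitted one by one in R 4.3.3 with edgeR 4.0.16 (TMM, filterByExpr, robust quasi-likelihood test) and Benjamini-Hochberg adjustment over all genes tested. A gene was called at more than 2-fold with an adjusted p below 0.01. Standard errors were the log2FC divided by the root of F. The study's methods name DESeq2 with normal shrinkage, which was run as an alternative (version 1.42.0), as were no shrinkage, DESeq2's size factors, no filter, all 20 libraries together, a replicate block and leaving out each clone. The script was tested on simulated data. Totals of 46652288 to 72952859 counts limit precision for genes with few counts, and intervals from counting alone are not given because the clones differ by more.

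The 9 genes, the paralogs and the pathway lists were chosen with earlier results of these data known. The genes named are the 9, ZBTB48 and its targets, the nearest tested neighbours on each side with overlapping genes, the nearest genes by pattern, and list members that were called, had a relation to 1 of the 9 or were named as markers (NFATC4, AKAP5, CHGB, ACVRL1, GDF2, BMP10, SMAD1, SMAD4, SMAD7 and the neighbours singled out by value were named after their values were seen). Replicate numbers are from the titles, and the labels name the same clone for both libraries of a number. Untreated and treated libraries of a number correlated across 21052 genes at Pearson's r of 0.587 to 0.772 in WT and of 0.602, 0.769, 0.565, -0.03 and 0.03 in KO replicates 1 to 5, and WT and KO libraries of one number at -0.21 to 0.21. The block is therefore used for IFNγ responses, in KO also with the treated libraries of replicates 4 and 5 exchanged. Promoter windows are from a RefSeq table of GRCh38.p14. Figures were drawn with Python 3.11.15. Some items, among them 1 pathway list, are not reported here.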

Additional observations from a re-analysis of the deposited data

Results flagged for a closer look

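In 3 of the 36 sets of 5 clones formed by the 9 genes and 4 groups, 1 clone stood far from the other 4 by Dixon's criterion, where chance gives about 1.8 such sets. TMEM63C in treated WT replicate 1 was at 4.33 CPM, below the other treated WT clones at 6.60 to 7.02 CPM. CCDC106 in the treated library labelled KO replicate 3 was at 1.68 CPM, below the others at 2.48 to 2.78 CPM. This library had more ZBTB48 mRNA than every treated WT library, but its MTFP1, VWA5A and PXMP2 levels were far below theirs. FRG2C in treated WT replicate 4 was at 0.0682 CPM, from 4 counts, above the others at 0 to 0.0185 CPM.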

How the results depend on the processing

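Of the 9 genes, the count called after IFNγ in WT was 2 and became 4 with the replicate block, 3 with DESeq2 without shrinkage and 0 with any 1 clone left out. In KO it was 0, and became 2 with DESeq2 without shrinkage, 1 with DESeq2's normal shrinkage, 1 with all 20 libraries together and 2 with the replicate block and KO replicates 4 and 5 exchanged. The 2 genes called in WT were not the same in every fit: without the filter they were TMEM63C and BANK1, and with shrinkage or all 20 libraries TMEM100 and BANK1. Over all genes, calls between untreated WT and KO numbered 3, and 5 without the filter, 12 with DESeq2, 5 with shrinkage, 5 with all 20 libraries and 1 with the replicate block. With IFNγ they numbered 3, and 5, 16, 6 and 6 under the first 4 of these settings, 2 with the block, and from 3 to 5 with 1 clone left out. Between the genotypes the block pairs clones that share only a number. Genes called after IFNγ in WT numbered 585, and 976 with DESeq2, 1414 with the replicate block and 318 to 457 with 1 clone left out. In KO they numbered 379, and 823 with DESeq2, 613 with shrinkage, 642 with all 20 libraries, 721 with the replicate block, 1208 with the block and the exchange and 131 to 490 with 1 clone left out. Neighbours called stayed at 0 in every fit. Of the single-gene values between the genotypes 255 kept within the replicate spread and 17 moved, 16 of them by DESeq2's shrinkage and 1 for FRG2C, at -5.04 without WT replicate 4. Of the IFNγ values 158 kept their side of the cut-offs, 13 lost and 12 gained a call, and 1 turned its sign, PPP3CB in KO, which lay between -0.082 and 0.093 with 1 clone left out and was below 0 without KO replicate 4. Where no cause is given here, the cause was not tested.

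Limits. The genotype values describe genes that were chosen for them, and the IFNγ responses use the same libraries. CELF3 and FRG2C rest on few counts, and how reads were divided between FRG2C and its near-identical copies is uncertain. The library labelled KO replicate 3 carries ZBTB48 mRNA, and 2 treated KO libraries resemble the untreated library of the other's number. Depth limits what can be said of genes under about 1 CPM.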
